A study of Mus musculus with 72 samples.

Results

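The lung of mice that received 2 Gy of X-rays was compared with the lung of sham-irradiated mice (0 Gy), 48 h after exposure, at the level of mRNA. The 6 arrays came from 3 mice a side, taken as every lung mRNA sample labelled 0 or 2 Gy, of 72 arrays in the whole series. All mice were female C57BL/6 J, wild type for all that the labels state, aged 6 to 8 weeks, and exposed over the whole body. Sham-irradiated mice differed from the others in the dose alone as the labels give it. The study held 6 doses from 0 to 12 Gy, with 3 mice at each, and measured mRNA and miRNA in liver and lung. Mice are given below by their sample numbers, which are 1, 11 and 21 at 0 Gy and 3, 13 and 23 at 2 Gy, and values are listed in that order.

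Ionizing radiation breaks DNA, and the breaks activate the transcription factor p53, which switches on genes that halt the cell cycle, repair DNA or start cell death. Lymphocytes and the red cell precursors of the bone marrow are among the cells most readily killed by radiation, whereas the alveolar epithelium, the endothelium and the connective tissue of the lung divide slowly. A piece of lung holds blood, lymphocytes and resident macrophages beside these structural cells, so that its RNA is a mixture. In such a bulk sample, fewer cells of a type and less RNA per cell cannot be told apart.

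RNA was labelled in 1 colour and hybridized to Agilent mouse arrays, and levels are given as log2 of quantile-normalized spot intensity. Between 59.2% and 64.0% of spots were well above background on the 0 Gy arrays and between 61.6% and 62.4% on the 2 Gy arrays. Of 56605 probes, 43979 were well above background on at least 1 of the 18 lung arrays and were tested. Pairs of arrays correlated at 0.977 to 0.980 (Pearson's r over probes) within 0 Gy, at 0.987 to 0.989 within 2 Gy and at 0.976 to 0.988 between the doses. The lung markers bore out the tissue label. Surfactant protein B (Sftpb) lay at 16.23 to 17.03 in these 6 lungs and at 3.80 to 5.55 in the 6 livers of the same doses when both organs were normalized together.

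Some facts touch every comparison with 0 Gy. All 3 arrays of 0 Gy lay on slide 3, with those of 1 Gy, and all 3 arrays of 2 Gy on slide 4, with those of 4 Gy, so that dose and slide cannot be told apart. Differences of 1 Gy from 0 Gy and of 4 Gy from 2 Gy lie within a slide and are given beside the main results. The control from mouse 21 stood apart, with transcripts of the thymus. Dntt, the DNA polymerase that adds bases to antigen receptor genes in developing lymphocytes, read 5.88, 8.29 and 13.26 at 0 Gy and 5.43, 5.69 and 5.24 at 2 Gy. The thymic protease Prss16 read 5.26, 5.56 and 10.57 at 0 Gy and 5.08, 5.42 and 5.06 at 2 Gy. The 9 thymus markers tested summed to an intensity of 3958 to 21694 over the controls and 3897 to 5267 over the 2 Gy mice. Mouse 21 was the highest control in 7 of the 9. Themis, also of this list, changed by -1.93 and without mouse 21 by -1.05. Psmb11, above background on 1 control array only, changed by -0.67 and without mouse 21 by -0.76, and neither gene passed. Of the recombinase genes of developing lymphocytes, Rag2 read 4.34, 4.63 and 8.78 against 4.40, 3.55 and 3.92, and Rag1 was not well above background on any of the 6 arrays. Values without mouse 21 are given below for some of the lists. Muscle transcripts varied among mice in both groups, with Acta1, the actin of skeletal muscle, at 7.36, 13.78 and 7.53 against 13.49, 13.11 and 8.29.

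At 2 Gy, 173 probes were lower and 31 higher than at 0 Gy by more than 1 on the log2 scale with a limma adjusted p under 0.05, which is 0.393% and 0.0705% of those tested. All 204 separated the 3 irradiated mice from the 3 controls without overlap, so that separate groups add nothing further for a called gene below. Their median change was 2.83-fold among the lower and 2.70-fold among the higher, and the extremes were 22.7-fold and 6.85-fold. With no limit on the fold, 224 probes (0.509%) fell and 59 (0.134%) rose. Taking 1 probe for each of 19875 named genes, the calls came to 122 lower (0.614%) and 17 higher (0.0855%), and with no limit on the fold to 160 (0.805%) and 34 (0.171%). These last shares are the background for the gene lists below, of which a member fell or rose where its adjusted p was under 0.05. Groups of mice did not overlap for 8.1% of all genes in the lower and 9.93% in the higher direction, and the median log2 difference over all genes was 0.02.

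With slide as a random block, 28 probes were called, 21 lower and 7 higher, and the 6 arrays fitted alone gave 25. The block's correlation rests on the 8 Gy arrays, of which 2 lay on slide 4 and 1 on slide 5. Every other dose lay on 1 slide, so passing or missing in the block fit does not separate slide from dose at 2 Gy against 0 Gy. Of the genes described below, Eda2r, Gdf15, Cdkn1a, Psrc1, A930001C03Rik, Alas2, Hbb-bt, H2-Ob, H2-Oa, Ltb and Iqgap3 and the transcript ENSMUST00000194162.5 were among the 28, and the other named genes were not. Single mice also carried weight, since the calls numbered 116 without mouse 21, 351 without mouse 1, 125 without mouse 3, 135 without mouse 13, 88 without mouse 23 and 191 without mouse 11. Of the genes described below as rising or falling, Zmat3, Mdm2, Phlda3, Aen, Ifi27l2a, Hapln2, Hbb-b1, Hba-a1, Fech, Bpgm, Gm33301, Mki67, Top2a, Tk1, H2-DMb2, H2-Eb1, Cxcr3, Rsad2 and Brca1 did not pass without mouse 21 on the probe used, nor did the region chr10:69819062-69871640 (adjusted p = 0.103).

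**Figure D1:**
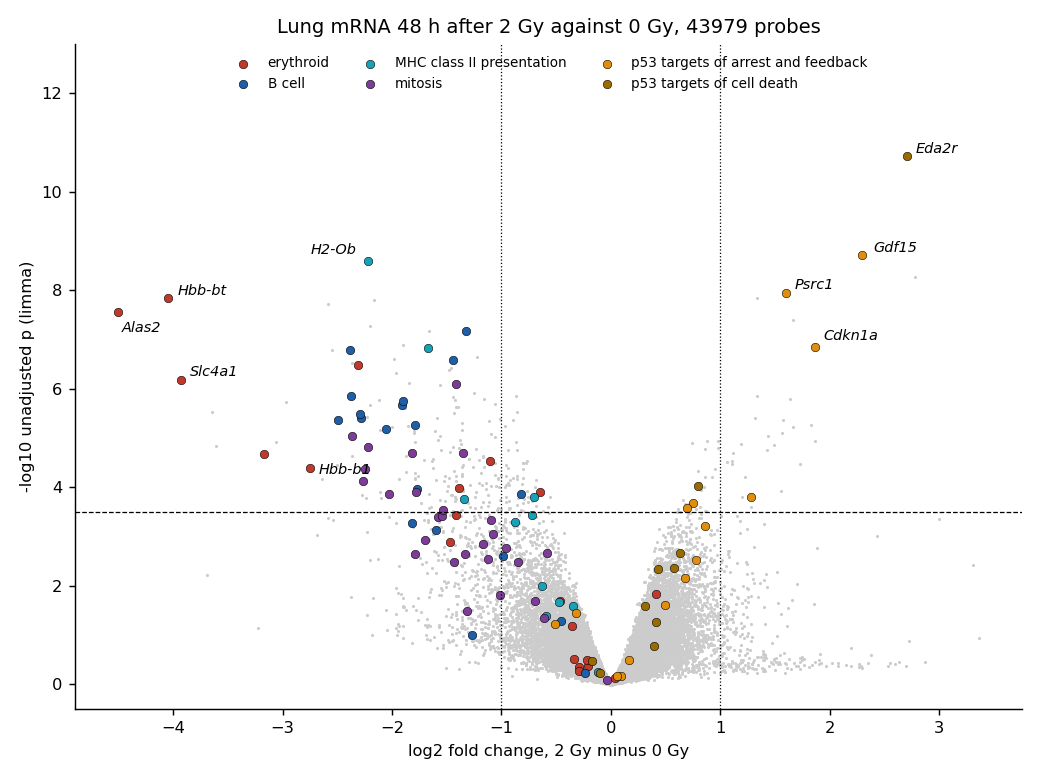
Each grey point is 1 of 43979 probes, with the log2 difference between 2 Gy and 0 Gy on the x axis and the -log10 of the unadjusted limma p on the y axis, and coloured points are genes of 6 lists. The dashed line marks the adjusted p of 0.05 and the dotted lines a log2 difference of 1 either way. Genes of p53 targets lie at the upper right, Eda2r highest, and erythroid, B cell and MHC class II genes at the upper left.

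Genes that p53 switches on were among the largest rises. Eda2r, a death receptor of the tumour necrosis factor receptor family, read 6.00, 6.12 and 6.20 at 0 Gy and 8.84, 8.86 and 8.73 at 2 Gy. Its groups lay far apart, and the difference was 2.70 ± 0.15 (log2, SE, limma adjusted p = 8.43e-07), while 2 dimmer probes of other transcripts gave 1.16 and 0.28 and did not pass. Gdf15, a secreted stress hormone of the TGF-beta family, read 7.64, 7.63 and 7.30 against 9.57, 9.87 and 10.02, with no overlap and a difference of 2.30 ± 0.18 (adjusted p = 3.77e-05). Cdkn1a, which encodes the p21 inhibitor of cyclin-dependent kinases, read 11.41, 11.83 and 11.54 against 13.54, 13.40 and 13.43. That is a difference of 1.86 ± 0.20 (adjusted p = 0.000365), and a probe for another of its transcripts gave 2.78.

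Psrc1, a microtubule-binding protein of the mitotic spindle, rose by 1.60 ± 0.14 (adjusted p = 8.55e-05), from 7.57, 7.77 and 8.04 to 9.57, 9.36 and 9.24. Zmat3, a zinc finger RNA-binding protein, rose by 1.28 (9.18, 8.62 and 8.70 against 10.27, 10.10 and 9.97, adjusted p = 0.0319). Smaller rises with separate groups were those of Mdm2, the ubiquitin ligase that degrades p53, by 0.75 ± 0.15 and of Phlda3, an inhibitor of Akt signalling, by 0.70 ± 0.15. A second probe of Mdm2 gave 0.43 and did not pass (adjusted p = 0.643). Of 15 p53 targets of arrest and feedback tested, these 6 rose, none fell, and the median difference was 0.70. The groups did not overlap for 11 of the 15 in the higher direction, and Plk2 (-0.51) and Sesn1 (-0.32) were the negative ones.

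Among 10 p53 targets of cell death, Eda2r and Aen rose, with a list median of 0.42. Aen, a nuclease of apoptotic cells, differed by 0.79 ± 0.15 (adjusted p = 0.022), and its 3 other probes gave 0.99 to 1.19. Bax, which opens the mitochondrial membrane, read 12.54, 12.56 and 12.40 against 13.09, 13.09 and 13.19, apart by 0.63 but short of the threshold (adjusted p = 0.158), while its dimmer probe passed, at 10.82, 11.09 and 11.10 against 11.91, 12.01 and 12.01 (0.98 ± 0.16, adjusted p = 0.00729). The death receptor Fas gave -0.10 and 0.54 on its 2 probes and Bbc3, a BH3-only protein of the mitochondrial pathway, 0.31, and none of these passed. Among 8 p53 targets of DNA repair the median was 0.02 and Mgmt alone, which removes methyl groups from guanine, rose, by 0.95 ± 0.17 (9.92, 10.02 and 10.15 against 10.88, 11.20 and 10.87). Of 22 genes of DNA damage signalling none rose, Brca1, a repair protein of broken DNA, fell by 1.06 on 1 probe while its other gave 0.23, and the list median was -0.16.

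Eda2r, Gdf15, Cdkn1a and Psrc1 stayed past the threshold with slide as a random block, and on slide 3 alone 1 Gy exceeded 0 Gy by 2.29, 1.37, 1.77 and 0.95 in these genes, each past the threshold there. Of the genes of arrest and feedback 3 passed with that block and 3 when mouse 11, 21, 3, 13 or 23 was taken out.

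The start of Cdkn1a is shown because the response element of p53 was searched in the window from 250 bases before to 50 bases after each RefSeq start (GRCm38.p6), on both strands and with up to 13 bases between the half-sites. Capitals mark the half-sites found in 1 of the gene's 2 windows, chr17:29090729-29091028 on the plus strand.
Cdkn1a: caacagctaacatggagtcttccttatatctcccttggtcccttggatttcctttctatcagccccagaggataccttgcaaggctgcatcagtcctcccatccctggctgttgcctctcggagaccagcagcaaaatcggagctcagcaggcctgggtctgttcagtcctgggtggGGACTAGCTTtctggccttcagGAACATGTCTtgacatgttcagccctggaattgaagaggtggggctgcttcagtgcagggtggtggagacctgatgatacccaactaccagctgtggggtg
Of 16 named genes that rose and have a window, Cdkn1a alone held the element (6.25%), as did 20 of 27025 genes in all (0.074%).

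Other large rises had no place in the p53 lists. Ces2e, a carboxylesterase, read 8.46, 9.43 and 9.63 against 10.74, 11.30 and 11.08, a rise of 1.87 ± 0.27 (adjusted p = 0.00596). Timp1, the inhibitor of matrix metalloproteinases, read 10.12, 10.64 and 10.66 against 11.83, 12.43 and 12.08, a rise of 1.64 ± 0.22 (adjusted p = 0.00182). Hspbap1, a protein that binds a small heat shock protein, rose by 1.58 and the protease inhibitor A2ml1 by 1.56, each with separate groups. The noncoding transcript A930001C03Rik rose by 1.66 ± 0.16, from 6.51, 6.51 and 6.13 to 8.20, 7.92 and 8.02. Med27, a subunit of Mediator, rose by 1.43 on 1 probe, while the probes of another transcript gave -0.07 and -0.20. With slide as a random block A930001C03Rik passed (adjusted p = 0.00704) and Ces2e (0.177), Timp1 (0.0757), Hspbap1 (0.0948), A2ml1 (0.179) and Med27 (0.179) did not.

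Cfb, complement factor B, was the 1 gene of 18 in the acute phase and complement list that rose, by 1.42 ± 0.23 (11.31, 11.97 and 11.95 against 12.82, 13.47 and 13.21, adjusted p = 0.00749, and adjusted p = 0.201 with slide as a random block). The serum amyloid genes, which encode acute phase proteins, had higher values in every irradiated mouse than in any control and did not pass. Saa1 read 7.41, 7.55 and 7.63 against 10.98, 10.61 and 9.996 (adjusted p = 0.0609), and Saa3 9.82, 10.39 and 9.59 against 11.78, 13.10 and 12.20 (adjusted p = 0.0961). Of 28 interferon response genes, Ifi27l2a rose by 0.86 ± 0.18 and Rsad2, an antiviral enzyme, fell by 1.11 ± 0.23, each with a second probe that missed the threshold, and the median was 0.17. Without mouse 21 neither passed (adjusted p = 0.0869 for Ifi27l2a and 0.199 for Rsad2).

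Some probes near background gave only a bound on the fold, or none. Hapln2, which links hyaluronan to proteoglycans, was above background on 0 of 3 control and 2 of 3 irradiated arrays, at least 2.78-fold higher (adjusted p = 0.0261). The probe of Dpy19l2 differed (adjusted p = 0.0117) but was not well above background on any array of either group. Of regions named on the array by their mm9 coordinates, chr17:29183003-29217681 (strand letter R) rose by 1.83 and chr12:5303823-5379098 (R) by 1.67.

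Transcripts of red cells and their precursors fell furthest. Alas2, the erythroid enzyme that starts haem synthesis, read 13.61, 13.84 and 13.51 at 0 Gy and 9.49, 8.85 and 9.11 at 2 Gy. The groups were apart by 4.50 on the log2 scale (-4.50 ± 0.43, adjusted p = 0.000124), which is 22.7-fold. Hbb-bt, an adult beta-globin gene, read 16.92, 17.35 and 17.31 against 13.29, 12.99 and 13.16, a change of -4.04 ± 0.37 (adjusted p = 8.55e-05). Slc4a1, the band 3 anion exchanger of the red cell membrane, read 8.53, 9.67 and 9.32 against 5.56, 5.65 and 4.52, a change of -3.93 ± 0.48 (adjusted p = 0.000997). No irradiated mouse reached the lowest control in any of these.

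The other globins changed less on this scale. Hbb-b2 changed by -3.17 and Hbb-b1 by -2.75, and the alpha-globin gene Hba-a1 by -1.39 ± 0.27 on 1 probe (17.42, 17.39 and 17.43 against 16.34, 15.68 and 16.06) and by -2.23 ± 0.32 on the other. Globin genes share long stretches of sequence, so that their probes may read more than 1 of them. The Hba-a1 controls lay near the top of the array, where quantile normalization assigns nearly the same value to every array. Bpgm, a red cell enzyme of glycolytic intermediates, changed by -1.101 and Fech, the enzyme that inserts iron into haem, by -0.65.

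In all, 9 of 20 erythroid genes fell, none rose, and the list median was -0.87. The transcription factors of the list did not pass, with Tal1 at -0.47 and the dim Klf1 at -0.21, and Hemgn, a nuclear protein of blood progenitors, stood at 0.04 on its brighter probe and at -1.34 on a dim one. The summed intensity of the 20 genes was 717074 to 844545 at 0 Gy and 162467 to 232012 at 2 Gy. With slide as a random block 3 members passed, without mouse 21 there were 5 and without mouse 23 there were 4, and the median without mouse 21 was -0.80. Within slide 3 the list median at 1 Gy against 0 Gy was -0.45, and within slide 4 that of 4 Gy against 2 Gy was -0.25.

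The start of Alas2 (chrX:150547167-150547466, plus strand, GRCm38.p6) is shown for the motif AGATAA, the letters that GATA factors of red cell precursors read, in capitals on either strand.
Alas2: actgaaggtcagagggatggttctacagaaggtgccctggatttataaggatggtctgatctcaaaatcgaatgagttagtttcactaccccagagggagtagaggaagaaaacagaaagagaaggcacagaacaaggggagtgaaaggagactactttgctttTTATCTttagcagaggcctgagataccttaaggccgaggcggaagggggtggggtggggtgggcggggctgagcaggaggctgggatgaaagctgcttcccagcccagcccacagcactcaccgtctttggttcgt
Of 4 erythroid genes that fell and have a window, Alas2 alone held AGATAA (25.0%), against 12.7% of all genes. The motif was not particular to this list. Among genes that fell, 2 of 4 MHC class II, 1 of 11 mitosis and replication and 0 of 10 B cell genes held it. So did 1 of 16 named genes that rose. Differences between these sets were not tested.

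Other genes with large falls are of less settled place. Zdhhc22, a palmitoyltransferase, read 12.01, 13.14 and 12.76 against 9.005, 8.92 and 9.04 (-3.65 ± 0.50), and Slc6a20a, an imino acid transporter, 9.91, 11.30 and 10.33 against 7.69, 7.46 and 7.49 (-2.97 ± 0.39). Unc93a2 changed by -3.61 on the brighter probe and by -0.17 on a dim one, and the noncoding Gm33301 by -2.50. In all 4 the lowest control was mouse 1. Every irradiated mouse lay below it, which the rule for naming the largest changes required. A pair of regions named by coordinates fell, chr10:69819062-69871640 (F) by 2.11 and chr8:26212577-26218527 (R) by 1.88.

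B cell genes fell in the greatest share of any list. Fcer2a, the CD23 receptor for IgE on mature B cells, read 9.82, 10.24 and 11.37 at 0 Gy and 8.00, 8.03 and 7.93 at 2 Gy, a change of -2.49 ± 0.36 (adjusted p = 0.00317). Fcmr, the receptor for IgM, read 11.56, 12.39 and 12.89 against 10.01, 9.91 and 9.80, a change of -2.37 ± 0.31 (adjusted p = 0.00174). Cd79a, a signalling chain of the antigen receptor, read 7.64, 9.17 and 8.69 against 6.35, 6.53 and 6.45 (-2.06 ± 0.31, adjusted p = 0.00417). In each gene the irradiated mice lay close together and below every control, and mouse 21 was the highest control for Fcer2a and Fcmr. Fcrla, an Fc receptor-like protein inside B cells, changed by -2.30 ± 0.32 and Cr2, the complement receptor CD21, by -2.29 ± 0.32. Another probe of Cr2 passed (-2.11, adjusted p = 0.00422), and a further one did not (-1.62, adjusted p = 0.0919).

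In total 13 of 19 B cell genes fell and all 19 differences were negative, with a median of -1.79 and no overlap in 18. Ms4a1, which encodes CD20, was the clearest member that did not pass, at 11.34, 12.54 and 13.19 against 10.12, 10.92 and 10.58 (-1.82 ± 0.41, adjusted p = 0.0686). Pax5, the factor that commits cells to the lineage, stood at -0.24 on the probe used for the list, while its other probe read 7.41, 7.67 and 7.85 against 5.97, 5.86 and 5.53 and passed (-1.85 ± 0.27, adjusted p = 0.00373). Ebf1, which stromal cells express too, stood at -0.46. The summed intensity was 40321 to 80800 at 0 Gy and 16936 to 27079 at 2 Gy. With slide as a random block 3 members passed, and between 11 and 15 did so when any 1 mouse was left out, with a median of -1.60 without mouse 21.

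Receptors that guide or sustain B cells moved in the same direction. Of 38 chemokines and chemokine receptors 3 fell, all receptors. Cxcr5, which draws B cells into follicles, read 9.42, 9.85 and 10.22 against 7.84, 8.20 and 7.75 (-1.90 ± 0.25, adjusted p = 0.00184). Ccr6, found on B cells and some T cells, read 8.95, 8.42 and 9.46 against 7.07, 7.04 and 7.18 (-1.85 ± 0.23), and Cxcr3, on activated T cells, changed by -0.92 ± 0.19. No chemokine ligand passed, and the median of the list was -0.13.

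Of 29 cytokines and receptors 3 fell. Tnfrsf13c, the BAFF receptor that keeps mature B cells alive, read 9.36, 9.94 and 10.35 against 7.601, 8.02 and 7.42 (-2.20 ± 0.30, adjusted p = 0.0021), and Tnfrsf13b, the receptor TACI, changed by -1.44 ± 0.19. For both, a second probe missed the threshold, at -0.82 for Tnfrsf13c and at 0.39 for Tnfrsf13b. Ltb, the lymphotoxin chain that organizes lymphoid tissue, read 12.18, 12.06 and 12.69 against 10.71, 10.68 and 10.53 (-1.67 ± 0.18, adjusted p = 0.000365). Tnfsf13b, which encodes the ligand BAFF, stood at 0.35 and Tnf at 0.01 and -0.92 on its 2 probes, none past the threshold. The cytokine median was -0.05, and with slide as a random block 1 of these 3 cytokine genes and none of the 3 chemokine receptors passed.

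MHC class II genes, whose products show peptides to helper T cells, were lower as a group, most of all the genes that B cells use to restrain peptide loading. H2-Ob read 10.06, 10.45 and 10.48 against 8.24, 8.19 and 7.90 (-2.22 ± 0.18, adjusted p = 3.77e-05, with a second probe at -1.57 and an adjusted p of 0.0681), and its partner H2-Oa 10.48, 10.96 and 11.25 against 9.21, 9.36 and 9.11 (-1.67 ± 0.18, adjusted p = 0.000365). H2-DMb2, a chain of the peptide exchanger, changed by -1.34 ± 0.27 and the class II beta chain H2-Eb1 by -0.70 ± 0.14, from 15.45, 15.26 and 15.31 to 14.60, 14.72 and 14.60. H2-DMb1 and H2-DMb2 are close in sequence. These 4 of 11 fell, all 11 differences were negative, and the median was -0.70. Cd74, the invariant chain, stood at -0.72 (adjusted p = 0.0551) and the class II transactivator Ciita at -0.59. With slide as a random block, and without mouse 11, 21, 3, 13 or 23, 2 members passed.

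H2-Ob is shown for the motif CCAAT, read by NF-Y, in capitals (chr17:34238655-34238954, plus strand, GRCm38.p6).
H2-Ob: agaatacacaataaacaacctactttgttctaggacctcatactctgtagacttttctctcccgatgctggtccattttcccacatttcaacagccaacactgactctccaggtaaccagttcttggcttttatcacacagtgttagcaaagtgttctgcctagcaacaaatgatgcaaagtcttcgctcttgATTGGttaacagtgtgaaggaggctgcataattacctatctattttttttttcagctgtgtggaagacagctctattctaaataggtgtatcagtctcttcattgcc
All 4 class II genes that fell hold CCAAT in the window (100.0%), against 41.1% of all genes. Other sets held it too, with 3 of 4 erythroid and 4 of 10 B cell genes that fell. It was also found in 8 of 16 named genes that rose. Whether the sets differ was not tested.

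T cell genes were lower in the mean and varied widely among the controls. Cd3e, a chain of the T cell receptor complex, was the 1 member of 20 that fell, at 10.35, 10.98 and 12.48 against 9.44, 9.56 and 9.59 (-1.74 ± 0.36, adjusted p = 0.0376), and its second probe, at -0.995, missed the threshold. Cd8b1, the beta chain of CD8, read 10.36, 11.61 and 13.90 against 9.09, 9.67 and 9.50 (adjusted p = 0.0636), and Cd4 10.25, 10.45 and 11.67 against 10.43, 10.41 and 10.43. All 20 differences were negative with a median of -1.20, and 18 did not overlap.

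Mouse 21 held the highest control value in all 20 T cell genes. The list's summed intensity was 20397, 27070 and 73032 in mice 1, 11 and 21 and 13220 to 15304 at 2 Gy. Without mouse 21 the median was -0.70 and 2 members passed, Cd3e and Cd8a. Without mouse 1 there were 8, without mouse 11, 3, 13 or 23 none, and with slide as a random block none. The part of the thymus transcripts in these values was not tested.

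**Figure D2:**
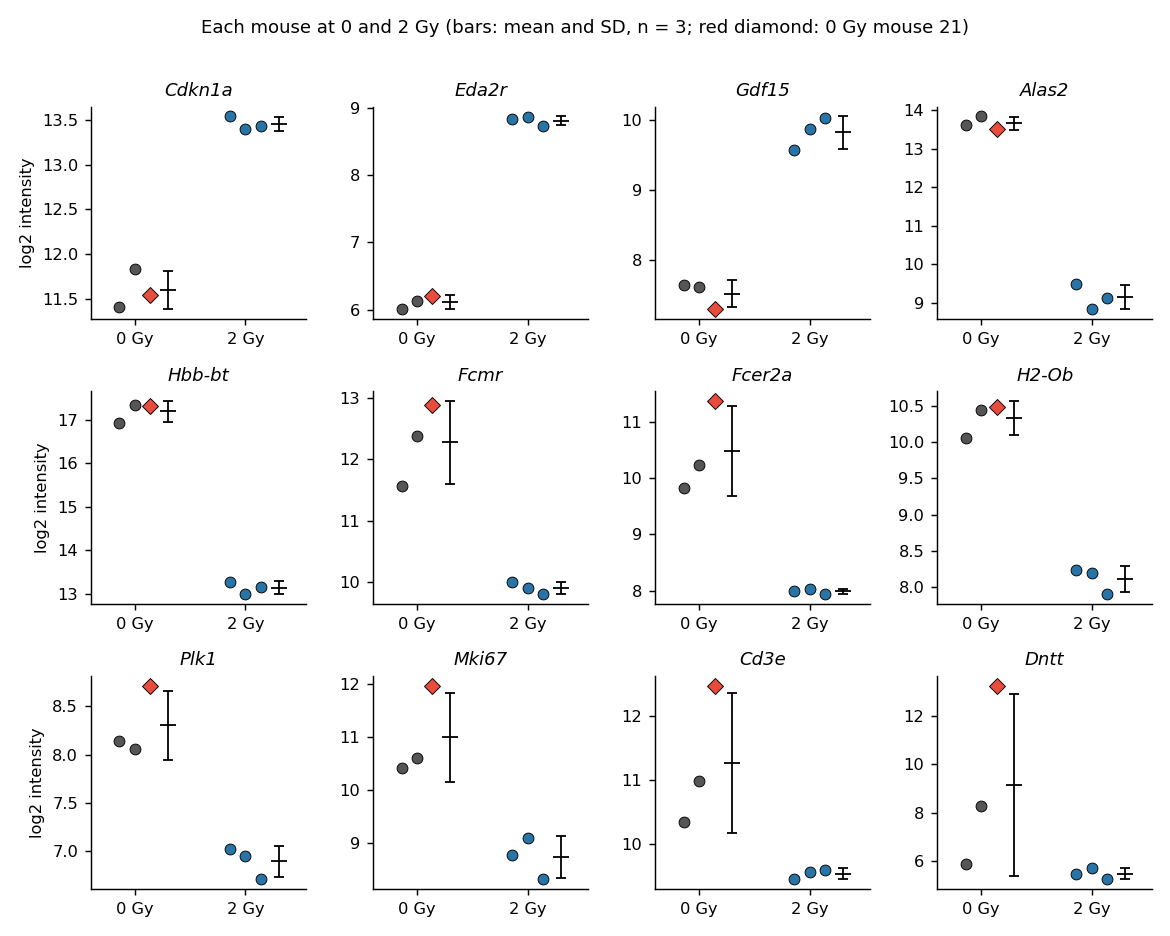
Each panel gives the log2 intensity of 1 gene in the 3 mice at 0 Gy and the 3 at 2 Gy, with the mean and SD (n = 3) beside them and 0 Gy mouse 21 as a red diamond. The groups do not overlap in any panel, and Dntt reaches 13.26 in mouse 21 alone. Mouse 21 lies above both other controls for Eda2r, Fcmr, Fcer2a, H2-Ob, Plk1, Mki67, Cd3e and Dntt.

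Genes of mitosis were lower as a group. Ube2c, the ubiquitin-conjugating enzyme of the anaphase-promoting complex, read 8.88, 9.70 and 10.72 against 7.34, 7.72 and 7.15 (-2.36 ± 0.36, adjusted p = 0.00512). Mki67, the proliferation marker, read 10.41, 10.60 and 11.96 against 8.77, 9.10 and 8.31 (-2.26 ± 0.42, adjusted p = 0.0186). Ccna2, the cyclin of S phase and G2, read 8.98, 9.34 and 10.67 against 7.49, 7.79 and 7.03 (-2.22 ± 0.35, adjusted p = 0.00701). All 3 were highest in mouse 21, and in each the highest irradiated mouse lay below the lowest control. Birc5, the survivin subunit of the chromosomal passenger complex, changed by -2.24 ± 0.39, Top2a, the topoisomerase that untangles sister chromatids, by -2.03 ± 0.40 and Cdca8, another passenger subunit, by -1.82 ± 0.30. Second probes missed the threshold for Ccna2 (-1.68, adjusted p = 0.109), Top2a (-1.62, 0.0923) and Cdca8 (-1.17, 0.0957) and passed for Birc5 (-1.66, 0.0446). Iqgap3, a scaffold of dividing cells, was at least 5.55-fold lower (adjusted p = 9.15e-05), being above background in the controls only.

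In all, 10 of 28 mitosis genes fell, all 28 differences were negative, 25 did not overlap, and the median was -1.38. Cdk1, the kinase that drives mitosis, overlapped on the probe used for the list, at 6.62, 6.95 and 7.08 against 6.89, 6.84 and 6.79, and gave -1.24 on the other, which did not pass (adjusted p = 0.128). All 28 had their highest control value in mouse 21, and the median without it was -0.99 with 6 members past the threshold. There were 21 without mouse 1, 5 without mouse 3 and 2 without mouse 23, and none with slide as a random block. On slide 3 the list median at 1 Gy against 0 Gy was -1.08, with mouse 21 among the controls. The summed intensity of the list was 9360, 12502 and 27004 in mice 1, 11 and 21. It was 6031, 7182 and 5480 in the mice at 1 Gy.

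Fewer genes of DNA replication fell. E2f8, a repressor among the E2F factors, changed by -1.87 ± 0.31, Rrm2, the subunit of ribonucleotide reductase that rises in S phase, by -1.79 ± 0.28, Uhrf1, which maintains DNA methylation, by -1.76 ± 0.32 and Tk1, thymidine kinase, by -1.70 ± 0.29. A dim second probe of Uhrf1 gave -0.45 and did not pass. Rrm2 read 10.31, 10.61 and 11.79 against 9.10, 9.25 and 9.002, with no overlap. These 4 of 24 fell, with a list median of -0.56. The helicase genes Mcm2 to Mcm7 ran from -0.42 to -0.84 and none passed, and the sliding clamp Pcna stood at -0.28. In 21 of the 24, mouse 21 was the highest control. Without it the median was -0.37 with 3 members, without mouse 3 there were 2 and without mouse 23 there was 1, and with slide as a random block none.

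The starts of Mki67 (chr7:135716330-135716629, minus strand) and Plk1, a mitotic kinase that fell by 1.41 (chr7:122159185-122159484, plus strand), are shown for TTTGAA, the core of the cell cycle homology region, and CCAAT, in capitals on either strand (GRCm38.p6).
Mki67: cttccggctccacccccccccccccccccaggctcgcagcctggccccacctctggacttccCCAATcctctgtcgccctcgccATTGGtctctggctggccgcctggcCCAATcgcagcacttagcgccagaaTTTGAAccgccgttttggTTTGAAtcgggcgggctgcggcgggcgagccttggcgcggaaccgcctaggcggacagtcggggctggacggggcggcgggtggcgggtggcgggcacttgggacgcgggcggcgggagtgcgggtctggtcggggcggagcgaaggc
Plk1: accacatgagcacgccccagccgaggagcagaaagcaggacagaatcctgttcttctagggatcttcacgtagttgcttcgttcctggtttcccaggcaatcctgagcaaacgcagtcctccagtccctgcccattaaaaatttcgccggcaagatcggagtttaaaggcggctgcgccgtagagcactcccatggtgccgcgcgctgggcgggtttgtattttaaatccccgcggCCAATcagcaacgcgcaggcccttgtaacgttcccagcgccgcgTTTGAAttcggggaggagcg
Of 11 mitosis and replication genes that fell and have a window, 6 held TTTGAA (54.5%), against 20.2% of 27025 genes, and 8 held CCAAT (72.7%), against 41.1%.

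**Figure D3:**
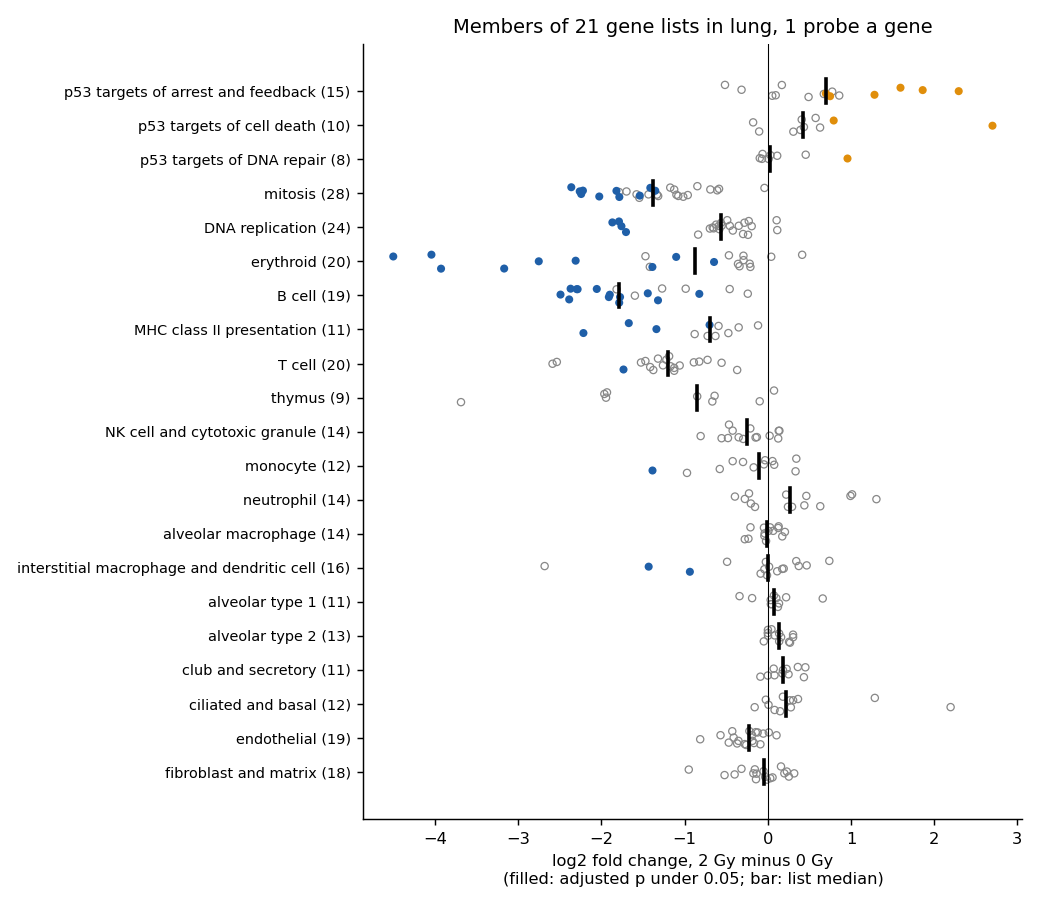
Each point is 1 gene, with its log2 difference between 2 Gy and 0 Gy on the x axis, grouped by list with the number of genes tested in parentheses, filled where the limma adjusted p was under 0.05, and a bar marks the list median. Medians run from -1.79 for B cell genes to 0.70 for p53 targets of arrest and feedback, and lists of lung epithelium, endothelium and fibroblasts hold open points only.

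Myeloid genes changed singly rather than as lists. Treml4, a receptor of patrolling monocytes and some dendritic cells, read 10.65, 10.33 and 10.70 against 9.12, 9.32 and 9.05 (-1.40 ± 0.19, adjusted p = 0.00213), as the 1 of 12 monocyte genes that fell, and its second probe gave -0.58. Flt3, the receptor for the growth factor of dendritic cells, read 8.83, 8.59 and 8.54 against 7.41, 7.15 and 7.11 (-1.43 ± 0.20, adjusted p = 0.00266). Clec9a, the receptor of cross-presenting dendritic cells, read 8.92, 8.67 and 8.72 against 7.71, 7.80 and 7.99 (-0.94 ± 0.16, adjusted p = 0.0132). Its second probe, at -1.27, missed the threshold (adjusted p = 0.115). In the values listed for these 3 genes mouse 21 did not stand apart from the other controls, and the groups did not overlap. They differed already between 1 and 0 Gy on slide 3, by -1.17 for Treml4, -1.30 for Flt3 and -1.17 for Clec9a.

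The list of interstitial macrophages and dendritic cells as a whole had a median of 0.00, with Flt3 and Clec9a as the 2 of 16 that fell. Alveolar macrophage genes had a median of -0.01 (0 of 14 passed), monocyte genes -0.11 and natural killer genes -0.25 (0 of 14). Neutrophil genes had a median of 0.27 with 0 of 14 past the threshold. Stfa2l1, a neutrophil cystatin, read 6.44, 7.36 and 7.36 against 8.08, 8.43 and 8.58, apart but with an adjusted p of 0.134. Platelet genes (-0.09, 0 of 11) and those of mast cells, basophils and eosinophils (-0.35, 0 of 11) held no call.

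No gene of the structural lung lists passed. Medians were 0.14 for 13 genes of alveolar type 2 cells, 0.07 for 11 of type 1 cells, 0.18 for 11 of club and secretory cells, 0.22 for 12 of ciliated and basal cells, -0.22 for 19 endothelial genes, -0.04 for 18 of fibroblasts and matrix and -0.11 for 10 of smooth muscle and pericytes. Ager, the receptor that marks type 1 cells, read 17.56, 17.73 and 17.60 against 17.77, 17.85 and 17.93. The endothelial adhesion molecule Pecam1 read 12.37, 12.43 and 12.01 against 12.35, 11.499 and 11.85 and overlapped. Sftpc is the surfactant gene of type 2 cells and Scgb1a1 the secretoglobin of club cells. They took the same 2 top ranks on every array of 0 and 2 Gy. Quantile normalization thus gave each a difference of 0.00 that says nothing of its level. Without mouse 21 the medians were 0.02 for type 2, 0.00 for club and 0.07 for ciliated and basal genes, and -0.35 for the platelet list.

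Lists of tissue that a dissected lung can carry also held no call, at medians of 0.08 for 15 heart and skeletal muscle genes, 0.01 for 12 fat genes, 0.27 for 7 mesothelial genes and 1.20 for 13 hepatocyte genes. The hepatocyte value had wide scatter, as for Ambp, a secreted liver protein, at 5.83, 7.76 and 8.27 against 9.96, 8.80 and 8.83 (adjusted p = 0.858), and the list median without mouse 21 was 1.78. Stress programmes other than p53 gave no call either. Medians were -0.01 for 16 clock genes, 0.19 for 16 immediate early genes, 0.29 for 15 glucocorticoid-responsive genes, 0.26 for 12 NRF2 targets and -0.19 for 16 heat shock and unfolded protein genes. Cebpd, a factor induced by glucocorticoids and by inflammation, read 13.31, 13.05 and 13.18 against 13.83, 13.86 and 14.07 (adjusted p = 0.0887). The clock factor Arntl read 7.40, 7.56 and 7.67 against 6.96, 6.92 and 6.72 (adjusted p = 0.105).

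The neighbouring doses place 2 Gy within the series. Against 1 Gy, 1 probe was lower (0.00227%) and 0 were higher (0%), with 3119 at an unadjusted p under 0.05, and the probe, of the transcript AA672647, stood at 5.58, 7.19 and 5.40 on average at 0, 1 and 2 Gy, with 1 of the 3 spots at 1 Gy missing as an outlier. That call was lost without mouse 3, 13 or 23, and 4 probes were called without mouse 12 of the 1 Gy group. Against 2 Gy, 4 Gy had 3 probes lower (0.00682%) and 2 higher (0.00455%), with 2432 at an unadjusted p under 0.05, and both doses lay on slide 4. Fkbp5, a chaperone induced by glucocorticoids, averaged 5.72, 5.71 and 5.67 at 0, 1 and 2 Gy and 7.61 at 4 Gy (1.94 ± 0.26, adjusted p = 0.0431). This probe lay near background, being well above it on 1 of 3 arrays at 0 Gy and 2 of 3 at 2 Gy. A brighter probe of Fkbp5 was not called. Mybl1, a Myb transcription factor, rose by 1.07 ± 0.14 from 2 to 4 Gy, Ltb fell by 1.26 ± 0.18 and Ms4a4b, a T cell membrane protein, by 1.53 ± 0.22. The transcript ENSMUST00000194162.5 fell by 1.96 ± 0.28. These 5 calls fell to 0 without mouse 3, 13 or 23 or without mouse 14 of the 4 Gy group, to 2 without mouse 24 and numbered 23 without mouse 4.

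Group means over the doses are given as a description. Cdkn1a averaged 11.60, 13.37, 13.46, 14.08, 14.64 and 15.18 from 0 to 12 Gy, so that its values at 1 and 2 Gy were within 0.09 (adjusted p = 0.968 for 2 Gy against 1 Gy). Eda2r averaged 6.11, 8.40, 8.81, 9.83, 10.28 and 10.47. Alas2 averaged 13.65, 11.34, 9.15, 7.18, 6.83 and 6.91, and the step from 1 to 2 Gy of -2.19 did not pass (adjusted p = 0.324), with an SD of 1.16 among the 3 mice at 1 Gy. Clec9a averaged 7.60 at 1 Gy and 7.83 at 2 Gy, and from there to 12 Gy its means stayed between 7.65 and 7.87. Within slide 4, list medians for 4 Gy against 2 Gy were -0.98 for B cell, -0.76 for T cell, -0.61 for natural killer and -0.42 for class II genes, -0.23 for mitosis and 0.33 for p53 targets of arrest and feedback.

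**Figure D4:**
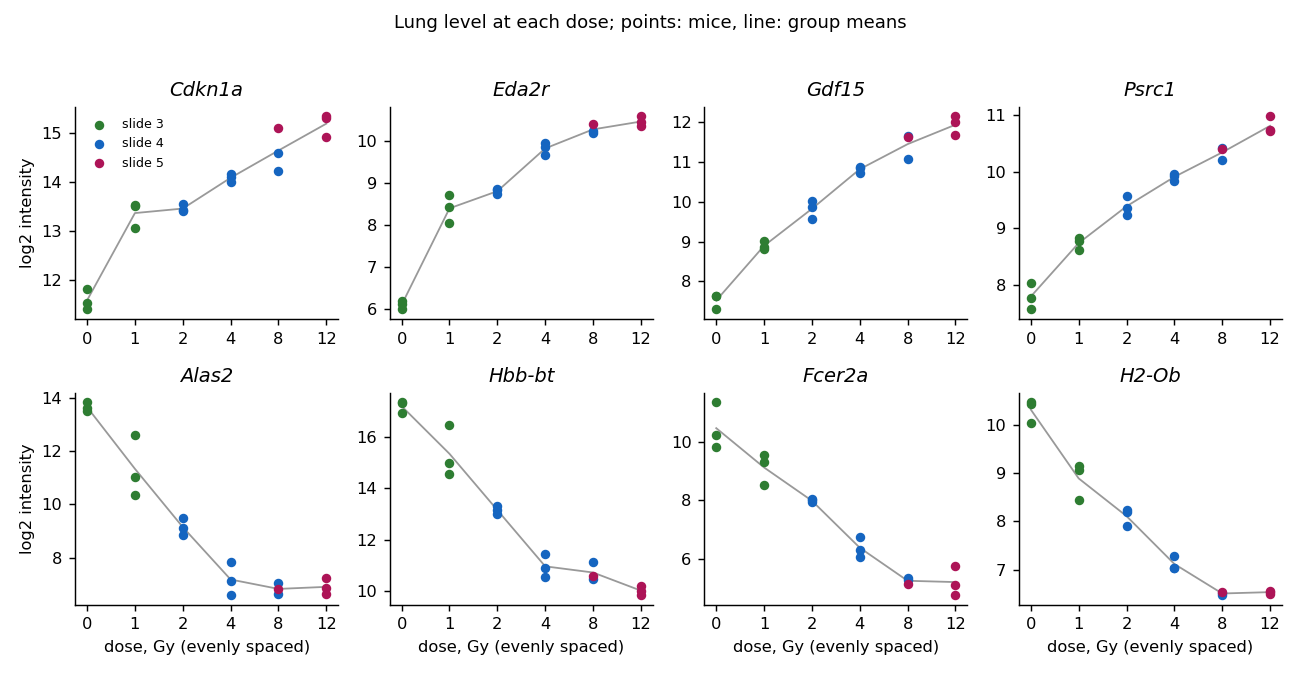
Log2 intensity of 8 genes in each of 18 lungs by dose, evenly spaced on the x axis, with the slide as colour and a line through the group means. Cdkn1a, Eda2r, Gdf15 and Psrc1 are higher at each irradiated dose than at 0 Gy, Alas2, Hbb-bt, Fcer2a and H2-Ob lower, and the slide changes between 1 and 2 Gy.

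The change at 2 Gy was then set against that in liver from the same study, with 36 arrays normalized together. Of 47376 probes tested, the lung change lay below the liver change in 17 (0.0359%) and above it in 11 (0.0232%), with 3159 at an unadjusted p under 0.05. Alas2 differed most among genes that fell in lung. It changed by -4.87 in lung and by -0.84 in liver, where it read 12.22 and 11.38 on average at 0 and 2 Gy, a difference of -4.03 ± 0.50 (adjusted p = 0.000344). Hbb-bt changed by -4.39 in lung and -4.53 in liver, a difference of 0.14 ± 0.60. Treml4 changed by -1.47 in lung and -0.05 in liver, a difference of -1.42 ± 0.25 (adjusted p = 0.0222). Among the rises, Ces2e, Timp1 and Cfb changed by 1.96, 1.75 and 1.57 in lung and by 0.21, 0.07 and 0.10 in liver, and each difference passed (adjusted p = 0.0445, 0.0326 and 0.0421). A second probe of Cfb gave 1.38 in lung and 0.015 in liver, and its difference of 1.36 did not pass (adjusted p = 0.112). Liver held more of Ces2e and Cfb than lung at 0 Gy, at 14.33 against 8.63 and at 16.15 against 11.34.

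Of the 173 probes lower in lung, 159 had the same sign in liver, with medians of -1.501 and -0.63, and of the 31 higher, 27 did, with medians of 1.41 and 0.46. In liver 141 of the 173 and 26 of the 31 were above background, and these signs and medians include the rest. Lung and liver came from mice of the same sample numbers, and these probes were chosen on the lung. Eda2r changed by 2.57 in lung and 2.65 in liver (difference -0.08 ± 0.35), and Cdkn1a by 2.07 and 3.08 on 1 probe (difference -1.01 ± 0.31, adjusted p = 0.406). The other Cdkn1a probe went the other way, at 2.75 in lung and 2.12 in liver (difference 0.63, adjusted p = 0.831). Fcer2a changed by -2.57 and -2.65 (difference 0.07 ± 0.52). The 28 calls numbered 6 to 101 when 1 array was left out, the extremes being those without liver mouse 13 and without liver mouse 23. They numbered 8, 9 and 7 without lung mouse 21, 13 or 23, and 9, 16 and 44 without liver mouse 1, 11 or 3.

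**Figure D5:**
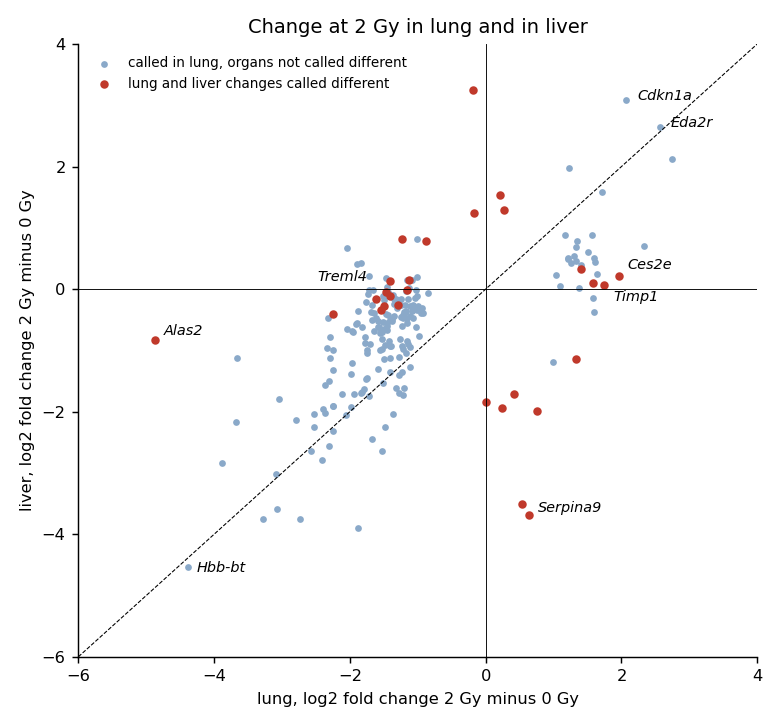
Log2 change at 2 Gy against 0 Gy in lung on the x axis and in liver on the y axis, for the probes called in lung and, in red, the 28 whose changes differed between the organs, with equality as a dashed line. Most probes called in lung lie on the same side of 0 in liver, while Alas2 lies at -4.87 and -0.84 and the 2 probes of Serpina9 at 0.64 and 0.53 in lung and at -3.69 and -3.51 in liver.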

How the data were processed

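RNA from lung was hybridized to 1-colour Agilent 8x60K arrays, 1 array a mouse. The authors deposited, per array, the intensity of every spot as the median of its pixels, the local background likewise (Feature Extraction 11.5.1.1, protocol GE1_1105_Oct12, array design on mm9), without normalization between arrays, and the software's processed signal, a background-subtracted intensity. The authors' deposited series values are linear intensity values whose making is not given in the sources used here. They served as an alternative.

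Median intensities were corrected with limma's normexp at an offset of 0, quantile-normalized over 18 lung arrays, log2-transformed and averaged over the spots of a probe, with control spots dropped and outlier spots set to missing. Probes well above background (at least 0.5 of spots) on 1 array or more were fitted with limma, all 6 doses in 1 model, and p-values adjusted by Benjamini-Hochberg. A probe was called at a log2 change beyond 1 either way and an adjusted p under 0.05. The lung and liver difference was an interaction in 12 groups of 36 arrays. A probe below background on every array of 1 group gives a bound on the fold. Ran in R 4.3.3, limma 3.58.1 and statmod 1.5.0, with figures in Python 3.11.15 and matplotlib 3.10.9. The script was tested on simulated data. The number of arrays, 3 a group, limits the precision.

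Probes were named through RefSeq accessions (34566 of 56605 matched), and sequences are RefSeq's (GRCm38.p6). The members and lists were chosen with earlier results of these data known. Lists used the tested probe of a gene with the highest mean. Named were the 12 largest changes each way among called genes without overlap, up to 6 members of each list past the threshold (otherwise the 2 with the smallest p), the 3 largest noncoding changes, the 3 largest of the other contrasts and 11 fixed genes. Members outside this rule, such as Plk1, Cdk1, Bax, Fas, Saa1, Saa3, Dntt, Prss16, Rag1, Cd8b1, Cd4, Pax5, Tal1, Cd74, Pcna and Tnf, were picked after their values were seen. The alternatives varied background correction, scaling, filter, arrays in the fit, slide, weights and single mice. Some listed genes have no tested named probe and are not analysed here. Some members are counted in their lists but not reported singly here.

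Same-numbered lung and liver arrays did not deviate together (r from -0.052 to 0.0464 over 18 numbers), and 0 and 2 Gy share no number within lung.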

Additional observations from a re-analysis of the deposited data

Results flagged for a closer look

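The change at 2 Gy differed between lung and liver in 28 probes by limma's interaction. Alas2, the enzyme that starts haem synthesis in red cell precursors, gave a lung change minus liver change of -4.03 (log2), Treml4, a monocyte receptor, of -1.42 and the noncoding Gm11346 of -2.05. The unnamed transcript AK079279 gave -3.44. Neither Gm11346 nor AK079279 was well above background on any liver array at 0 or 2 Gy. In lung AK079279 was near background too, well above it on 1 of 3 arrays at 0 Gy and 0 of 3 at 2 Gy. Its lung means were 4.26 and 4.07. In the other direction stood Cfb (1.47), Timp1 (1.67), Ces2e (1.75) and Hapln2 (2.47), all higher in irradiated than in control lung, with Hapln2 above background on 1 of 3 control livers and 0 of 3 irradiated ones.

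Serpina9, a serine protease inhibitor, gave differences of 4.33 and 4.04 on its 2 probes. These came from the liver, where the probes changed by -3.69 and -3.51, while in lung they changed by 0.64 and 0.53 and did not pass.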

How the results depend on the processing

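Slide as a fixed term and a comparison within a slide could not be fitted for 2 Gy against 0 Gy, against 1 Gy or for the organ difference, because each slide held 1 of the lung groups compared, and were not run. As a random block (correlation 0.268 within a slide), slide left 28 calls and 28 probes past the adjusted p, of 204 and 283. That correlation rests on the 8 Gy arrays, the only dose split over slides, so the block fit cannot separate slide from dose either. By list, chosen after seeing the data, it left 3 p53 targets of arrest and feedback, 3 B cell, 3 erythroid, 2 class II and 1 cytokine gene and 0 of mitosis, replication, T cells and chemokines. The 6 arrays alone gave 25 and 25. Array weights gave 403 and 746, and an offset of 50 gave 434 past the adjusted p. The other processing alternatives gave 173 to 254 calls, the offset included, and 233 to 408 past the adjusted p. Leaving out 1 mouse gave 88 to 351 calls, 98 to 440 past the adjusted p, 3 to 5 p53 targets, 2 to 21 mitosis, 1 to 6 replication, 11 to 15 B cell, 0 to 8 T cell, 2 to 5 class II and 4 to 9 erythroid genes. Scaled to the 75th percentile, normexp values gave 3 T cell genes and the processed signal 1.

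For 2 Gy against 1 Gy the 1 call became 2 at an offset of 50, 13 with the processed signal and 0 to 4 without 1 mouse. For 4 Gy against 2 Gy the 5 calls became 3 with the processed signal and 0 to 23 without 1 mouse. The 28 calls of the organ difference became 49 at an offset of 50 and 6 to 101 without 1 array. With the sample number that lung and liver share as a replicate block, the same number of probes was called, 28. No named gene past the adjusted p changed sign under any alternative run. Of those not past it, 4 did: Fkbp5 (-0.05) became 0.10 with the processed signal, 0.27 with the series values, 0.21 with array weights and ran from -0.24 to 0.11 without 1 mouse (above 0 without mouse 1, 3 or 13). Acta1 (2.07) became -0.081 with array weights. Without 1 mouse Pparg (-0.21) ran from -0.41 to 0.069, the last without mouse 21, and AK079279 (-0.22) from -0.57 to 0.0092, the last without mouse 13. The causes were not tested.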
